A study of Mus musculus with 8 samples.

Results

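Microglia are followed here through 9 genes: Cx3cr1, P2ry12, Tmem119, Csf1r, Aif1, C1qa, C1qb, C1qc and Trem2. They were chosen by name, as the rows of the count table whose Ensembl identifiers carry these symbols, and each symbol had 1 row. They make up 9 of the 49585 genes in the table, and all 9 were among the 23113 genes tested. The RNA came from whole brains of 8 newborn female pups killed on postnatal day 1, with 1 pup and 1 poly(A) RNA library per litter, sequenced as 125 bp single-end reads. Every pup was a B × C F1 hybrid of a C57BL/6J mother and a CAST/EiJ father. In the 0 ppm group (4 pups) the mothers drank water without added cadmium, and in the 50 ppm group (4 pups) they drank water with 50 ppm CdCl2, both before mating and through gestation. The treatment was thus given to the mothers, and each library mixes RNA of many cell types. The comparison asked whether maternal cadmium exposure was accompanied by different levels of these transcripts in the newborn brain.

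Microglia are the resident macrophages of the brain; they arise from yolk sac progenitors, enter the brain in the embryo and maintain themselves there by division. In the newborn brain they clear dying cells, prune synapses and gather in the young white matter. Their survival and identity rest on signals from neighbouring cells, among them ligands of the Csf1 receptor and transforming growth factor beta.

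The 0 ppm libraries held 29704044, 26741649, 30708087 and 25765997 counted reads in replicates 1 to 4, and the 50 ppm libraries held 27943397, 28344410, 28163329 and 22916434. Values are given as CPM, the reads of a gene per 1000000 counted reads, with each total adjusted by the trimmed mean of M values (TMM), whose factors lay between 0.986 and 1.02. A gene without reads could still have had up to 3, equal to 0.0980 to 0.132 CPM depending on the library. Such limits and the intervals of counts cover counting error only. Libraries of the same group differed from each other beyond sampling noise in each of the 12 pairs (chi-square over degrees of freedom, 8.67 to 21.1).

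Brains of the 50 ppm group held somewhat more reads of the 9 genes together, but no single gene passed the test across all genes. The summed level was 95.6 ± 6.49 CPM at 0 ppm and 111 ± 9.56 CPM at 50 ppm (mean ± SD, n = 4 each), a ratio of 1.16. The 3 genes with the lowest p-values were all receptors with higher means at 50 ppm: P2ry12 (1.35-fold), Cx3cr1 (1.21-fold) and Csf1r (1.17-fold). Fold changes of the complement genes were smaller, and those of Tmem119, Aif1 and Trem2 lay close to or below 1. In whole tissue, a different number of microglia and a different amount of RNA per cell cannot be told apart.

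With edgeR's quasi-likelihood test and the Benjamini-Hochberg adjustment over the 23113 genes, 0 of the 9 genes had an adjusted p under 0.05, beside 4 of all genes tested (0.0173%). Those 4 were Bcas1, Hoxb6, Hoxb7 and Hoxb8, named here after their values were seen. DESeq2, and limma-voom with sample quality weights, also called 0 of the 9. At an unadjusted p under 0.05, 3 of the 9 were higher at 50 ppm, beside 2.31% of all genes, and 0 were lower, beside 1.44%. That count of 3 was 0 without 0 ppm replicate 2 or without 50 ppm replicate 2, and 1 without 0 ppm replicate 4 or without 50 ppm replicate 4. All 4 libraries at 50 ppm lay above all 4 at 0 ppm for 0 of the 9, beside 1.19% of all genes, and below them for 0, beside 0.904%. The log2 fold change was positive for 7 and negative for 2 of the 9, with a median of 0.14, whereas 49.0% of all genes were positive with a median of -0.0033. The median size of the log2 fold change over all genes, sign dropped, was 0.11. The count of 4 called genes was 20 without 0 ppm replicate 3, 8 without 50 ppm replicate 3, and 2 without 0 ppm replicate 1, 0 ppm replicate 2 or 50 ppm replicate 4.

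**Figure D1:**
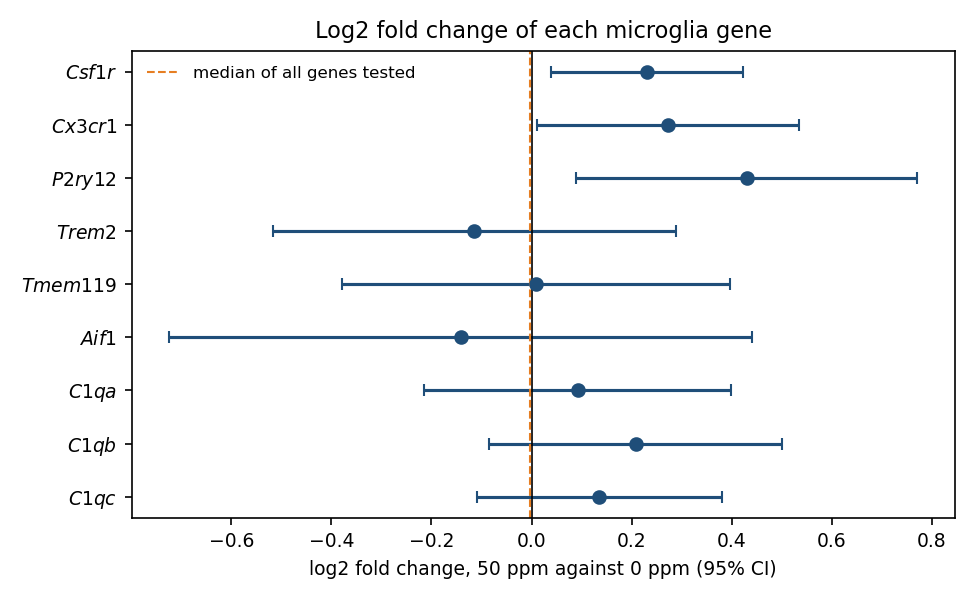
Log2 fold change of each gene, 50 ppm over 0 ppm, on the horizontal axis, with points for the estimate bars for its 95% confidence interval and a dashed line for the median of all genes tested. The intervals of P2ry12 (0.09 to 0.77), Csf1r (0.04 to 0.42) and Cx3cr1 (0.01 to 0.53) lie above 0, and those of the other 6 genes span it.

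All 9 transcripts had reads in every library, between the 23 of Aif1 and the 1127 of Csf1r. Together they took between 0.00895% and 0.0122% of the counted reads. Between genes, levels were compared as CPM per kb of summed exon length. On that scale C1qb had the highest mean over the 8 libraries (11.2 ± 1.91 CPM per kb, SD), followed by C1qa (8.34 ± 1.24), Csf1r (6.06 ± 0.738) and C1qc (5.49 ± 0.497). Cx3cr1 (4.50 ± 0.753 CPM per kb) and P2ry12 (3.69 ± 0.900) came next. Tmem119 (1.40 ± 0.217 CPM per kb), Aif1 (0.819 ± 0.219) and Trem2 (0.534 ± 0.0838) were lowest. The order of C1qb over C1qa, of C1qa over Csf1r, of P2ry12 over Tmem119 and of Tmem119 over Aif1 held in 8 of 8 libraries. Csf1r lay above C1qc, C1qc above Cx3cr1 and Aif1 above Trem2 in 7 of 8 libraries, and Cx3cr1 above P2ry12 in 6 of 8. The mean differences between these last neighbours were 0.572 ± 0.430, 0.988 ± 0.877, 0.285 ± 0.182 and 0.807 ± 0.657 CPM per kb (SD), so they exceeded their spread by a small margin only. With the longest annotated transcript as the length, 3 genes changed rank: C1qc moved to position 2, C1qa to 3 and Csf1r to 4.

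**Figure D2:**
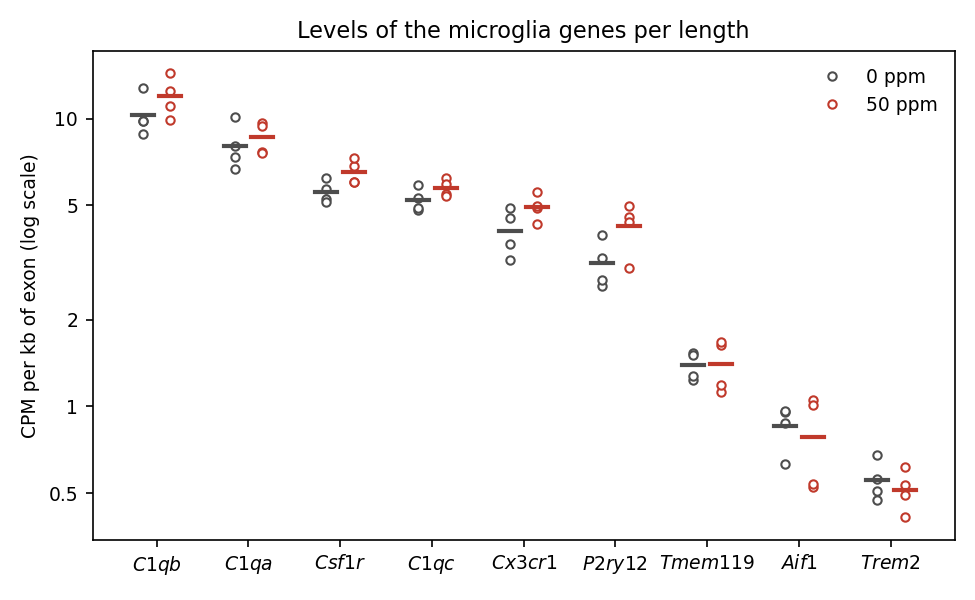
Level of each gene in CPM per kb of exon length (vertical axis, log scale), with a circle for each of the 8 libraries, coloured by group, and a bar for each group's mean. Over all 8 libraries the complement gene C1qb is highest, with a mean of 11.2 CPM per kb, and Trem2 lowest, with 0.534 CPM per kb.

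Csf1r (ENSMUSG00000024621, chromosome 18, 61100598 to 61132149 on GRCm38) encodes the receptor for Csf1 and interleukin 34 that microglia need to survive. Its level was 32.8, 30.3, 36.0 and 29.6 CPM in 0 ppm replicates 1 to 4, and 34.9, 39.6, 34.8 and 42.0 CPM in 50 ppm replicates 1 to 4. All 4 brains at 50 ppm were above the 0 ppm mean, but only replicates 2 and 4 were above the highest 0 ppm brain, replicate 3, so the groups overlapped. The means were 32.2 ± 2.89 and 37.8 ± 3.59 CPM (SD, n = 4), a difference larger than either SD. The log2 fold change was 0.23 (SE 0.09, 95% CI 0.04 to 0.42), with an unadjusted p of 0.0216 and an adjusted p of 0.999 in edgeR's quasi-likelihood test with the Benjamini-Hochberg adjustment. A smaller p was found for 1.75% of all genes tested. Of the exon bases of Csf1r, 15.1% are also exon of Hmgxb3 on the opposite strand, and the strand setting of the read counting is not given. Hmgxb3, looked up for this overlap after the values were seen, had 60.9 ± 3.39 CPM at 0 ppm and 59.8 ± 6.36 CPM at 50 ppm (SD, n = 4).

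Cx3cr1 (ENSMUSG00000052336, chromosome 9, 119901616 to 120069879) encodes the receptor for fractalkine, a chemokine that neurons present to microglia. It measured 22.0, 16.6, 14.5 and 20.4 CPM in the 0 ppm replicates and 22.1, 22.3, 19.4 and 25.0 CPM in the 50 ppm replicates. The low values belonged to 0 ppm replicates 2 and 3, and 50 ppm replicate 3 lay inside the range of the 0 ppm group, while the other 3 lay above it, replicate 1 by a narrow margin. The means were 18.4 ± 3.43 and 22.2 ± 2.30 CPM (SD, n = 4). This gave a log2 fold change of 0.27 (SE 0.12, 95% CI 0.01 to 0.53), with an unadjusted p of 0.0426 and an adjusted p of 0.999 by the same quasi-likelihood test of edgeR with the Benjamini-Hochberg adjustment. A smaller p was found for 3.19% of all genes.

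P2ry12 (ENSMUSG00000036353, chromosome 3, 59216272 to 59262871) encodes the purine receptor by which microglia sense ADP and steer their processes. Its level was 10.04, 6.66, 8.33 and 7.01 CPM in the 0 ppm replicates and 11.6, 12.7, 7.71 and 11.2 CPM in the 50 ppm replicates. Replicates 1, 2 and 4 at 50 ppm exceeded every 0 ppm brain, and replicate 3 lay below the 0 ppm mean, so the groups overlapped. The means were 8.01 ± 1.53 and 10.8 ± 2.16 CPM (SD, n = 4). P2ry12 had the largest log2 fold change of the 9, 0.43 (SE 0.16, 95% CI 0.09 to 0.77), with an unadjusted p of 0.0164 and an adjusted p of 0.999 by edgeR's quasi-likelihood test with the Benjamini-Hochberg adjustment. A smaller p was found for 1.37% of all genes. P2ry12 lies within Med12l on the opposite strand and shares 0.353% of its exon bases with it. Med12l, also looked up after the values were seen, had 43.2 ± 3.44 CPM at 0 ppm and 42.0 ± 2.15 CPM at 50 ppm (SD, n = 4).

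Whether these 3 receptors stayed under an unadjusted p of 0.05 depended on single brains and, for Cx3cr1, on the settings of the fit. Leaving out 0 ppm replicate 2 or 50 ppm replicate 2 brought all 3 above it. Without 0 ppm replicate 4 only Cx3cr1 stayed under it, and without 50 ppm replicate 4 only P2ry12 did. Without 0 ppm replicate 3 the 3 genes under it were P2ry12, Csf1r and C1qb. Cx3cr1 was also above it without 50 ppm replicate 1, with a filter of at least 10 reads in at least 4 libraries and with limma-voom with sample quality weights. The log2 fold change stayed positive throughout, between 0.18 and 0.29 for Csf1r, 0.17 and 0.37 for Cx3cr1, and 0.34 and 0.57 for P2ry12 over the 15 alternative settings.

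Trem2 (ENSMUSG00000023992, chromosome 17, 48346401 to 48354147), a lipid-sensing receptor linked to phagocytosis, had a lower mean at 50 ppm. Its counts were 55 to 98 reads per library, or 2.34 to 3.35 CPM at 0 ppm and 2.03 to 3.05 CPM at 50 ppm. Only 1 of the 4 brains at 50 ppm was above the 0 ppm mean. Trem2 had a log2 fold change of -0.11 (SE 0.19, 95% CI -0.52 to 0.29), negative in each of the 15 alternatives but close to 0 in some: it was -0.0053 without 0 ppm replicate 1, -0.015 without 50 ppm replicate 3 and, at the other end, -0.22 without 50 ppm replicate 2.

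Tmem119 (ENSMUSG00000054675, chromosome 5, 113793729 to 113800516), a membrane protein used to tell microglia from other macrophages, had means of 3.21 ± 0.359 CPM at 0 ppm and 3.25 ± 0.676 CPM at 50 ppm (SD, n = 4). The 4 brains at 50 ppm split into a pair below every 0 ppm brain, 2.60 and 2.74 CPM in replicates 1 and 2, and a pair above every one of them, 3.78 and 3.88 CPM in replicates 3 and 4. Its log2 fold change was 0.01 (SE 0.18, 95% CI -0.38 to 0.40). Its sign turned when 1 library was left out: it was -0.042 without 0 ppm replicate 2, -0.029 without 0 ppm replicate 4, -0.069 without 50 ppm replicate 3 and -0.083 without 50 ppm replicate 4.

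Aif1 (ENSMUSG00000024397, chromosome 17, 35170991 to 35176068) encodes Iba1, the cytoplasmic calcium-binding protein whose antibody is widely used to stain microglia. With 23 to 46 reads per library it was the least counted of the 9, and its highest library held 2.00 times the level of its lowest. The values at 50 ppm formed pairs here too, 0.807 and 0.821 CPM in replicates 1 and 3 and 1.62 and 1.54 CPM in replicates 2 and 4, on either side of the 0 ppm range of 0.967 to 1.47 CPM. Aif1 had a log2 fold change of -0.14 (SE 0.28, 95% CI -0.72 to 0.44), and it was 0.013 without 50 ppm replicate 1 and 0.0093 without 50 ppm replicate 3.

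**Figure D3:**
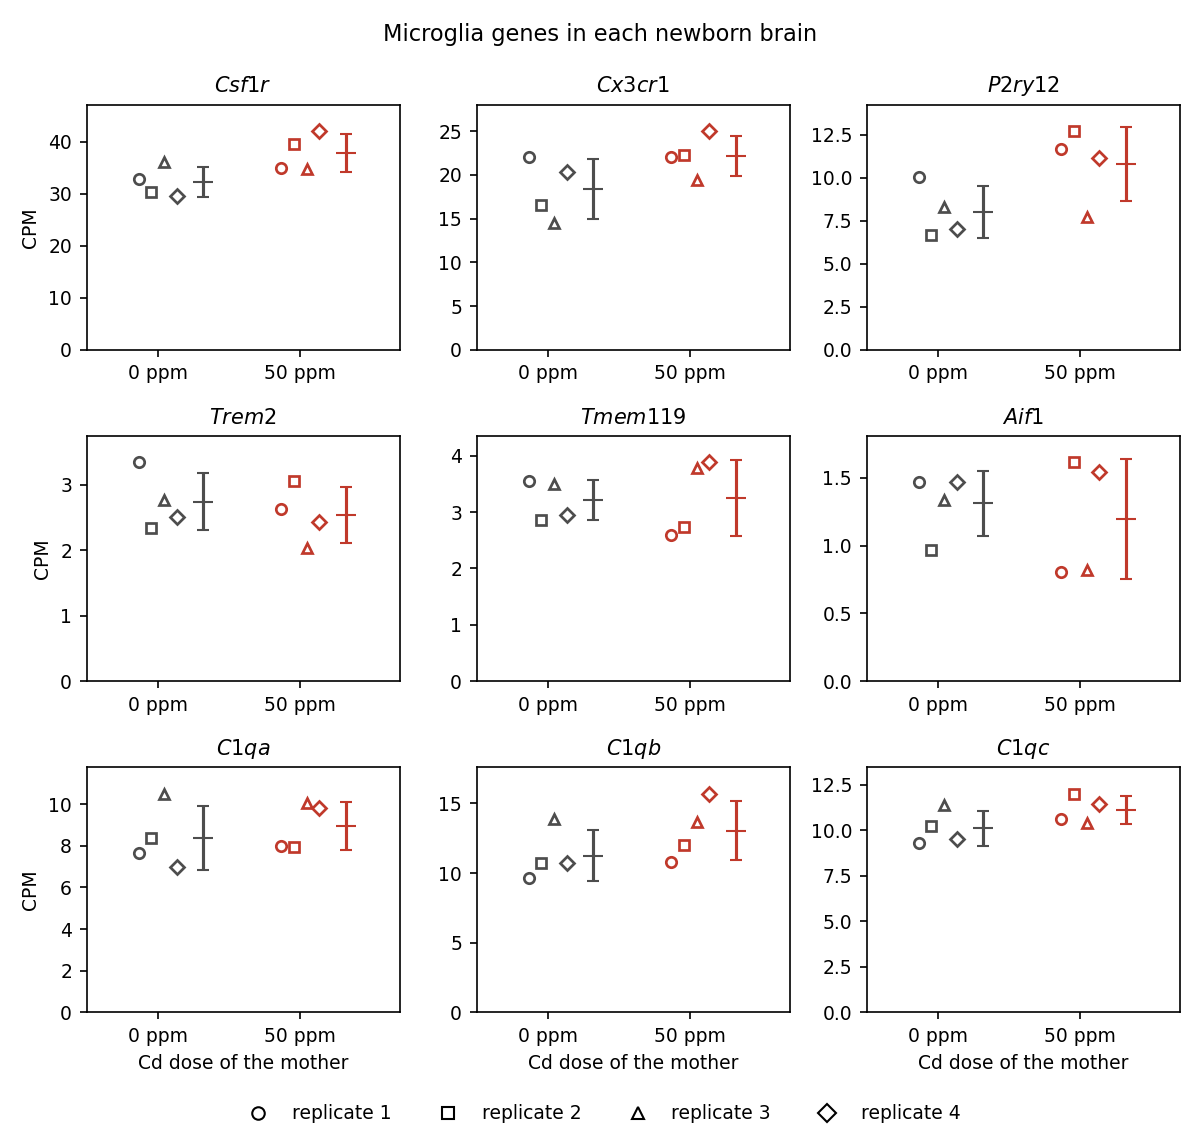
CPM of each of the 9 genes (vertical axes, each from 0) in the 0 ppm and 50 ppm groups, with a symbol per library, its shape giving the replicate, and bars for the mean ± SD (n = 4). The groups overlap in each panel; for P2ry12, 3 of the 4 brains at 50 ppm lie above the highest 0 ppm brain.

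C1qa, C1qb and C1qc encode the chains of C1q, the molecule that starts the classical complement pathway and tags synapses and debris for removal; in the brain microglia are its main source. The 3 genes stand side by side on the minus strand of chromosome 4, C1qb (ENSMUSG00000036905) at 136880129 to 136886187, C1qc (ENSMUSG00000036896) at 136889804 to 136893065 and C1qa (ENSMUSG00000036887) at 136895917 to 136898803. Promoter sequences were matched by symbol in RefSeq (GRCm38.p6), with 250 bases before the start site and 50 after it. Of the 9 genes, 6 were found there, and C1qa, Csf1r and Tmem119 were not. The promoters of C1qb (chr4:136886151-136886450, minus strand) and C1qc (chr4:136892865-136893164, minus strand) are shown because these genes are neighbours, with r = 0.70 across the brains. Those of Cx3cr1 (chr9:120068247-120068546, minus strand) and P2ry12 (chr3:59262936-59263235, minus strand) are shown as receptors with low unadjusted p. Capitals mark, on either strand, GAGGAA (reverse TTCCTC), the core bound by the myeloid factor PU.1, and TGTGGT (reverse ACCACA), the core bound by RUNX factors.
C1qb: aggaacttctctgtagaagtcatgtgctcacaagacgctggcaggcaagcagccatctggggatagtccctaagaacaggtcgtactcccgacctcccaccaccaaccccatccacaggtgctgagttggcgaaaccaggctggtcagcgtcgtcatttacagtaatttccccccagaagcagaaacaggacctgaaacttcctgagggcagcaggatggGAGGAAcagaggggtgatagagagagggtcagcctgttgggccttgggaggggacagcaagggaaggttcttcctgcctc
C1qc: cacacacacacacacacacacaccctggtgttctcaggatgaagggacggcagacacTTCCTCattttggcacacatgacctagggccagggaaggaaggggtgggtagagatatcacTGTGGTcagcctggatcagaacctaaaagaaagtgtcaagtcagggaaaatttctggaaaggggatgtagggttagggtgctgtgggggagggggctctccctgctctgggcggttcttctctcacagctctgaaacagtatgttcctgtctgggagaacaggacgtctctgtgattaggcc
Cx3cr1: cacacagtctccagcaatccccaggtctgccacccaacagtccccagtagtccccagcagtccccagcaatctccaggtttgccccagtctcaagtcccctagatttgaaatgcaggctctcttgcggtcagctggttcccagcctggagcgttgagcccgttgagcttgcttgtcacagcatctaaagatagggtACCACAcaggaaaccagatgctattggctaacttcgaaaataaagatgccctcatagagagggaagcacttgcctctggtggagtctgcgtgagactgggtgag
P2ry12: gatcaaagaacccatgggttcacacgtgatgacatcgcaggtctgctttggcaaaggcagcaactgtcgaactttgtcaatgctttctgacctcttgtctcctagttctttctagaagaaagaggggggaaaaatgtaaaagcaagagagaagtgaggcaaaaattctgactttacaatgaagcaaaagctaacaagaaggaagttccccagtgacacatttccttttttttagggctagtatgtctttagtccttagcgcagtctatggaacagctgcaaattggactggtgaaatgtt

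The PU.1 letters stand 30 bases before the start site in C1qb and, as TTCCTC, 193 bases before it in C1qc. The RUNX letters stand 132 bases before the start site in C1qc and, as ACCACA, 54 bases before it in Cx3cr1. Neither is in the P2ry12 window. The windows of Aif1 and Trem2 hold TTCCTC 7 and 40 bases before the start site. GAGGAA or its reverse was thus in 4 of the 6 windows, beside 28.3% of all 32851 promoters, and TGTGGT or its reverse in 2 of the 6, beside 16.8%. TGAGTCA (reverse TGACTCA), the letters bound by AP-1, was in 0 of the 6, beside 5.20%. Such matches describe letters in a window and were not tested as binding sites.

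Of the C1q chains, C1qb measured 9.66, 10.7, 13.9 and 10.7 CPM in the 0 ppm replicates and 10.8, 12.04, 13.6 and 15.7 CPM in the 50 ppm replicates. Its highest brains were 50 ppm replicate 4 and 0 ppm replicate 3, and the groups overlapped. Its log2 fold change was 0.21 (SE 0.14, 95% CI -0.08 to 0.50), with an unadjusted p of 0.152 in edgeR's quasi-likelihood test. C1qc ranged from 9.29 to 11.4 CPM at 0 ppm and from 10.4 to 12.01 CPM at 50 ppm, where all 4 brains were above the 0 ppm mean, and its log2 fold change was 0.14 (SE 0.12, 95% CI -0.11 to 0.38). C1qa ranged from 6.97 to 10.5 CPM at 0 ppm and from 7.93 to 10.1 CPM at 50 ppm, with 0 of the 4 brains at 50 ppm above the highest 0 ppm brain. Its log2 fold change was 0.09 (SE 0.15, 95% CI -0.21 to 0.40), and with 1 library left out it ran from 0.014 (without 0 ppm replicate 4) to 0.22 (without 0 ppm replicate 3). The reads of C1qb were 1.35 ± 0.129 times those of C1qa at 0 ppm and 1.45 ± 0.124 times at 50 ppm (SD, n = 4), and the ratio stayed between 1.26 and 1.60 over all 8 brains. The ratio of C1qb to C1qc reads lay between 1.00 and 1.37. Without 0 ppm replicate 3, C1qb came under an unadjusted p of 0.05, the only 1 of the 15 alternatives in which it did. Its log2 fold change was then 0.33, and it was 0.11 without 50 ppm replicate 4.

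Across the 8 brains the 9 genes did not vary as a single block. Over their 36 pairs, Pearson's r of log2 CPM ran from -0.44 to 0.84 with a median of 0.22, and 25 pairs were positive; these values describe 8 libraries that include both groups. The C1q genes were among the closest, with r = 0.84 for C1qa and C1qb, 0.70 for C1qb and C1qc and 0.54 for C1qa and C1qc. Csf1r varied with C1qc (r = 0.82), with P2ry12 (r = 0.76) and with C1qb (r = 0.73), and Cx3cr1 with P2ry12 (r = 0.67). Cx3cr1 and C1qa gave r = -0.35, and C1qb and Trem2 gave the lowest value, r = -0.44. The brain of 0 ppm replicate 3 shows this division: it had the highest C1qa and the lowest Cx3cr1 of all 8. Its ratio of Cx3cr1 to Csf1r reads, 0.403, was the lowest, beside 0.688 in 0 ppm replicate 4. Aif1 (23 to 46 reads per library) and Trem2 (55 to 98) had the fewest reads. The part of counting error in the low values of r was not tested.

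Single brains stood out by their sums. The summed level of the 9 genes was 99.8, 89.0, 102 and 91.1 CPM in the 0 ppm replicates and 104, 114, 103 and 123 CPM in the 50 ppm replicates. All 4 sums at 50 ppm were above all 4 at 0 ppm, with 50 ppm replicate 3 just above 0 ppm replicate 3. The difference of the means, 15.3 CPM, lay between 11.3 and 18.1 CPM when any 1 library was left out. The 50 ppm replicate 4 library, the shallowest, was highest for 4 genes (Cx3cr1, Tmem119, Csf1r and C1qb) and among the 3 highest for 8 of the 9. The 50 ppm replicate 2 library was highest for 3 (P2ry12, Aif1 and C1qc). By contrast, 0 ppm replicate 2 was among the 3 lowest for 8 of the 9. Of this sum, Csf1r held 33.7% of it at 0 ppm and 34.1% at 50 ppm, Cx3cr1 19.3% and 20.01%, and P2ry12 8.34% and 9.73%. The mean shares of the other 6 were lower at 50 ppm, among them Tmem119 with 3.35% and 2.94%, Trem2 with 2.86% and 2.29% and Aif1 with 1.37% and 1.06%.

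**Figure D4:**
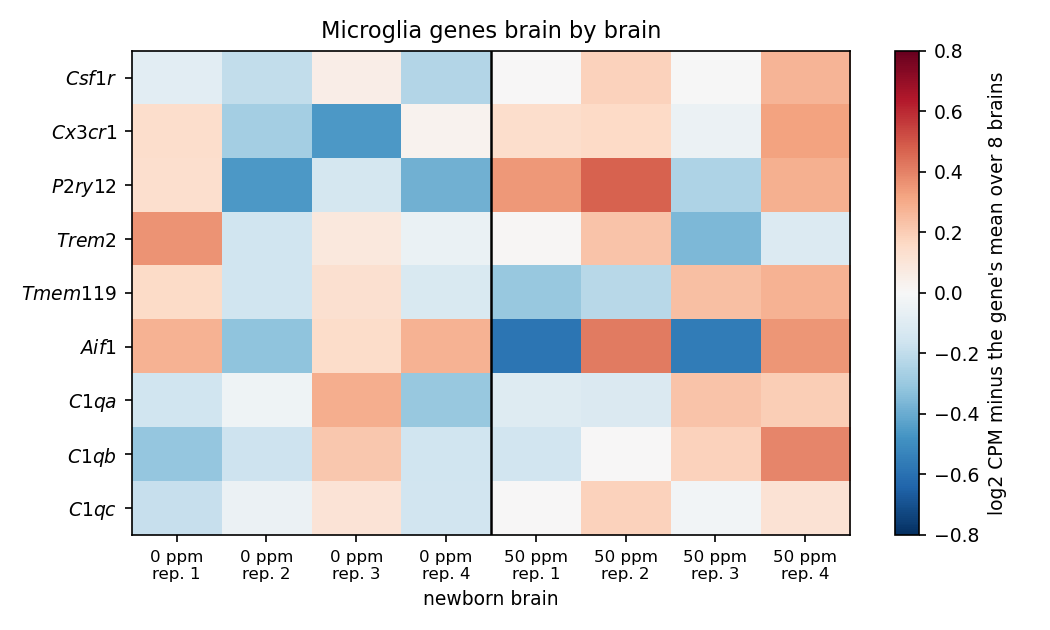
Log2 CPM of each gene (rows) in each of the 8 libraries (columns), as the difference from that gene's mean over the 8, red where higher and blue where lower. The 50 ppm replicate 4 column is among the 3 highest for 8 of the 9 genes, and 0 ppm replicate 2 among the 3 lowest for 8.

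The genes most like the mean log2 CPM of the 9, among 14593 other genes with a mean of at least 1 CPM, were Acadl (Pearson's r = 0.97 over 8 libraries), Cbs (0.96), Lpar1 (0.94), Gm10561 (0.94) and Hapln1 (0.93). Atp1b1 (r = 0.93), Cntn1 (0.93), Abhd4 (0.93), Fam189a2 (0.92) and Siae (0.92) followed, and the median r of all compared genes was -0.04. These 10 were picked as the highest of 14593 values over only 8 libraries, and they were not tested against chance. None of these 10 stands on a list of microglia or other cell type genes used here, and their own log2 fold changes lay between 0.06 and 0.26. Of the other microglia genes, 19 could be compared, and 19 had a positive r, with a median of 0.55. The median r was 0.46 for border macrophage markers (8 of 8 positive), 0.68 for the 2 monocyte and granulocyte markers compared, 0.54 for neuron markers (5 of 7 positive), 0.59 for astrocyte markers and 0.64 for oligodendrocyte markers. It was 0.31 for endothelial, 0.40 for meningeal fibroblast, 0.29 for hindbrain and spinal cord, -0.32 for forebrain markers and -0.25 for red cell markers (0 of 6 positive).

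A list of 22 other microglia genes was read in the same way. Of these, 21 were tested, and Itgam was listed at 0 in all libraries; 68.7% of its exon bases are shared with Gm49368 on the same strand. The log2 fold change was positive for 18 and negative for 3, with a median of 0.20, whereas 49.0% of all genes were positive. By edgeR 0 of the 21 passed the adjusted threshold. At an unadjusted p under 0.05, 2 were higher, beside 2.31% of all genes, and 0 were lower, beside 1.44%. The summed level was 176, 135, 166 and 145 CPM in the 0 ppm replicates and 165, 172, 154 and 186 CPM in the 50 ppm replicates, so the groups overlapped. Fcer1g, a signalling adaptor of Fc receptors, measured 2.12, 1.93, 1.57 and 2.01 CPM at 0 ppm, and at 50 ppm 2.32, 3.09, 2.39 and 3.26 CPM. Its groups did not overlap, and its log2 fold change was 0.53 (SE 0.20, 95% CI 0.12 to 0.94). Siglech, a sialic acid-binding receptor named after its values were seen, also did not overlap, with 1.63 ± 0.207 CPM at 0 ppm and 2.11 ± 0.225 CPM at 50 ppm (SD, n = 4). Its log2 fold change was 0.37 (SE 0.20, 95% CI -0.04 to 0.79), an interval that spans 0. All 4 libraries at 50 ppm lay above all 4 at 0 ppm for 2 of the 21, beside 1.19% of all genes. Rnase4, a secreted ribonuclease, had 9.26 ± 1.09 CPM and 11.1 ± 0.746 CPM, and shares 13.4% of its exon bases with Ang on the same strand.

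A further list held 10 ligands and cofactors of these receptors. Of the 10 genes, 0 passed the adjusted threshold of edgeR and 0 had an unadjusted p under 0.05; 9 were positive, with a median log2 fold change of 0.04. Cx3cl1, which encodes fractalkine and was the most abundant, had 98.3 ± 6.17 CPM at 0 ppm and 101 ± 10.2 CPM at 50 ppm (SD, n = 4). Itgb8, an integrin chain that activates transforming growth factor beta, had 88.6 ± 2.24 CPM and 89.8 ± 3.97 CPM. The list's sum was 336 to 366 CPM at 0 ppm and 344 to 386 CPM at 50 ppm.

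Of 16 genes for receptor signalling and microglial lineage factors, 15 were tested, and Irf8, whose gene lies inside the span of Gm20388 on the same strand, was listed at 0. None of the 15 passed edgeR's adjusted threshold, 0 had an unadjusted p under 0.05, and 11 were positive with a median log2 fold change of 0.15. Tgfbr1, a receptor for transforming growth factor beta, was the most abundant, at 127 ± 10.9 CPM at 0 ppm and 127 ± 24.5 CPM at 50 ppm (SD, n = 4). Axl, a receptor that recognises dying cells, had 36.5 ± 3.67 CPM and 40.4 ± 1.93 CPM. Vav1, a signalling protein of blood cells named after its values were seen, was 1.73 to 2.28 CPM at 0 ppm and 2.43 to 2.81 CPM at 50 ppm, without overlap. The list's sum was 268 to 289 CPM at 0 ppm and 254 to 320 CPM at 50 ppm.

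Beyond C1q, 19 genes of the complement system and its receptors were listed and 17 tested, with Cfb and Itgam listed at 0; 79.5% of the exon bases of Cfb are shared with Gm20547 on the same strand. By edgeR 0 of the 17 passed the adjusted threshold, 2 were higher and 0 lower at an unadjusted p under 0.05, and 13 were positive, with a median of 0.08. C1ra, a protease that acts with C1q, had 3, 2, 6 and 2 reads in the 0 ppm replicates and 8, 3, 15 and 5 reads in the 50 ppm replicates, with a log2 fold change of 1.29 (SE 0.59, 95% CI 0.06 to 2.52). The list's sum was 470 to 579 CPM at 0 ppm and 494 to 555 CPM at 50 ppm. Sez6, a neuronal complement regulator, was the most abundant at 312 CPM.

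The list of genes that microglia of developing white matter and phagocytic microglia switch on held 19 genes, all tested. By edgeR 0 passed the adjusted threshold, and at an unadjusted p under 0.05 2 were higher and 1 lower; 13 were positive, with a median of 0.04. Apoe, a lipid carrier made mostly by astrocytes in the healthy brain, was the most abundant, with 356, 342, 398 and 353 CPM at 0 ppm, and at 50 ppm 469, 493, 389 and 468 CPM. Only 50 ppm replicate 3 lay within the 0 ppm range, and the log2 fold change was 0.33 (SE 0.08, 95% CI 0.17 to 0.49; adjusted p = 0.366 by edgeR's quasi-likelihood test with the Benjamini-Hochberg adjustment). Igf1, a growth factor, had 29.4, 29.4, 26.0 and 23.4 CPM at 0 ppm, and at 50 ppm 30.6, 30.3, 32.9 and 32.7 CPM, without overlap. Gpnmb, a membrane glycoprotein of phagocytes, had 3.58 and 2.86 CPM in 0 ppm replicates 1 and 2 and at most 1.97 CPM in the other 6 brains. Its log2 fold change was -0.81 (SE 0.26, 95% CI -1.35 to -0.27). In 0 ppm replicates 1 to 4 the list summed to 1227, 1183, 1243 and 1123 CPM, and in 50 ppm replicates 1 to 4 to 1322, 1383, 1232 and 1336 CPM. In this sum, 3 of the 4 brains at 50 ppm were above every 0 ppm brain. They were also the brains above the 0 ppm range for Apoe. The sums of the groups overlapped both with Apoe included and with it taken out.

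Of 20 inflammatory response genes, 19 were tested, and 14 of these had a mean under 1 CPM. By edgeR 0 of the 19 passed the adjusted threshold, and 2 were higher and 0 lower at an unadjusted p under 0.05. The median log2 fold change was 0.21 over the 19 and -0.03 over the 5 genes above 1 CPM. Nfkbia, an inhibitor of NF-kappa-B, was the most abundant at 17.6 CPM. Ccl2, a chemokine that draws monocytes, had 2, 0, 0 and 1 reads at 0 ppm and 7, 10, 5 and 6 reads at 50 ppm, 3 reads beside 28 in all. Its groups did not overlap, and the ratio corrected for depth was 9.76 (exact 95% interval 3.02 to 50.2, for counting error only; adjusted p = 0.452 by edgeR's quasi-likelihood test with the Benjamini-Hochberg adjustment). Ifit3, induced by interferon, had 10, 12, 8 and 16 reads at 0 ppm and 27, 25, 16 and 10 reads at 50 ppm. The list's sum was 28.9 to 36.7 CPM at 0 ppm and 30.5 to 35.9 CPM at 50 ppm.

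The other macrophages and blood cells of the brain were read from marker lists, since several of the 9 genes are also made by border macrophages. Of 12 border macrophage markers, 12 were tested, 0 passed edgeR's adjusted threshold, 1 was higher and 0 lower at an unadjusted p under 0.05, and 10 were positive with a median of 0.19. Their summed level was 89.5, 72.5, 100 and 83.1 CPM at 0 ppm, and at 50 ppm 99.8, 92.2, 99.0 and 105 CPM, led by Stab1 at 26.9 CPM, with no marker at 0. Lyve1, a hyaluronan receptor, had 7.10, 5.62, 6.53 and 4.92 CPM at 0 ppm, and at 50 ppm 11.6, 8.99, 6.35 and 8.21 CPM, a log2 fold change of 0.54 (SE 0.17, 95% CI 0.18 to 0.90). These markers were thus higher on average alongside the 9 genes, and their part in the result was not tested. Markers of monocytes and granulocytes (12 of 12 tested, 0 under either threshold of edgeR, 6 positive and 6 negative) summed to 11.9, 12.2, 11.2 and 9.22 CPM at 0 ppm, and at 50 ppm 8.49, 13.3, 9.17 and 13.6 CPM, led by Lyz2 at 6.38 CPM, and 10 of them lay under 1 CPM. S100a9, a granulocyte protein, had 1.01 ± 0.212 CPM and 1.04 ± 0.637 CPM (SD, n = 4). Lymphocyte markers (5 of 8 tested, 0 under either threshold) summed to 0.271 to 0.853 CPM at 0 ppm and 0.562 to 0.947 CPM at 50 ppm, led by Cd4 at 0.448 CPM, with Nkg7 and Cd8a listed at 0 and at most 3 reads of Cd79a in any 0 ppm library. Red cell markers (8 of 8 tested, 0 under either threshold, 2 positive and 6 negative) summed to 128, 258, 259 and 312 CPM at 0 ppm, and at 50 ppm 101, 158, 404 and 206 CPM. They were led by Hbb-bs at 92.7 CPM and Hba-a1, both haemoglobin chains, and the groups overlapped widely.

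**Figure D5:**
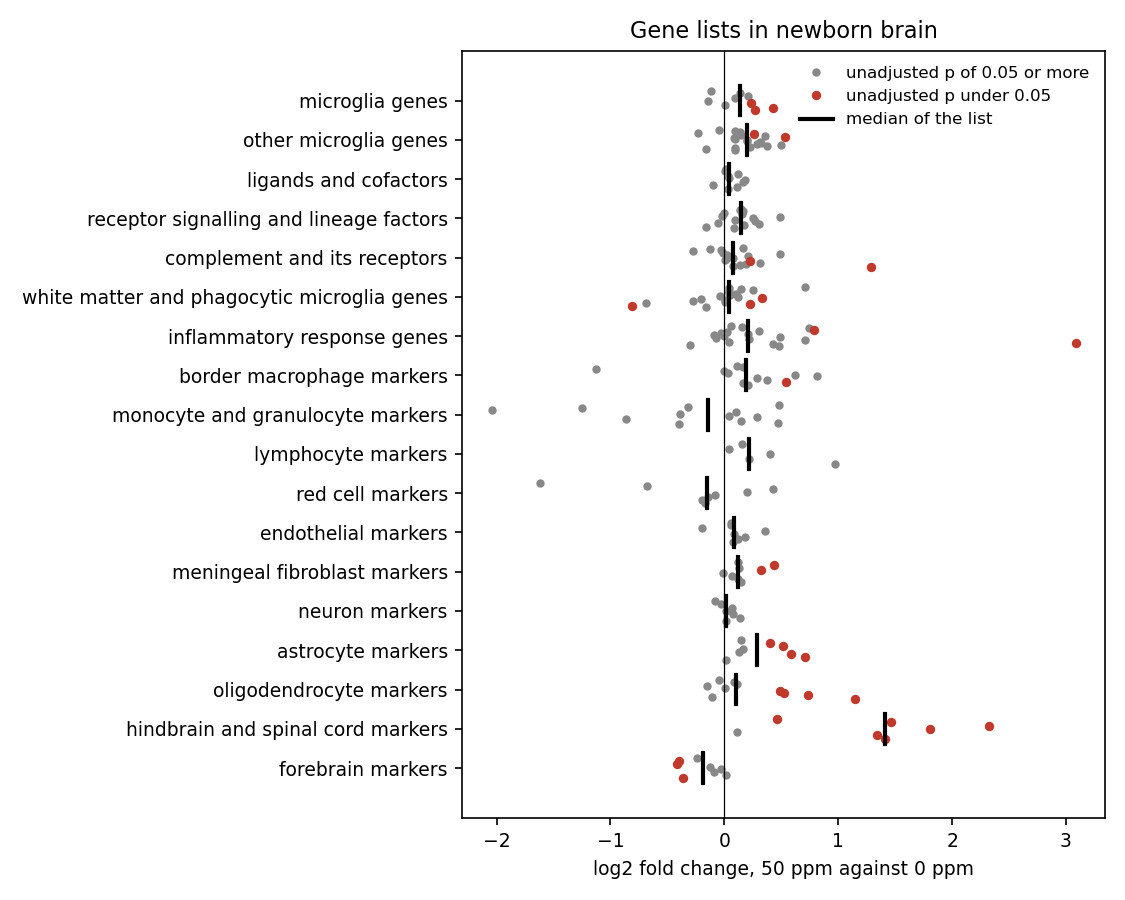
Log2 fold change, 50 ppm over 0 ppm (horizontal axis), of each tested gene of each list (rows), as a red point where its unadjusted p is under 0.05 and a grey point otherwise, with a black bar for the median of each list. The median is 0.14 for the 9 genes, 0.20 for the other microglia genes, 1.41 for hindbrain and spinal cord markers and -0.19 for forebrain markers.

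Markers of the vessel wall and the brain surface overlapped between the groups in their sums. Endothelial markers (8 of 8 tested, 0 under either threshold of edgeR, 7 positive, median 0.08) summed to 189 to 216 CPM at 0 ppm and 193 to 237 CPM at 50 ppm, led by Cldn5 at 63.7 CPM. Flt1, a vascular growth factor receptor, had 30.6 ± 5.50 CPM and 34.8 ± 7.56 CPM (SD, n = 4). Meningeal fibroblast markers (8 of 8 tested, 7 positive, median 0.12) summed to 483 to 669 CPM at 0 ppm and 568 to 661 CPM at 50 ppm, led by Col3a1 at 196 CPM. By edgeR 0 of them passed the adjusted threshold, and 2 were higher at an unadjusted p under 0.05, both without overlap. Slc6a13, a GABA transporter, had 29.4 ± 3.00 CPM and 36.8 ± 2.86 CPM, and Aldh1a2, which makes retinoic acid, had 16.6 ± 0.744 CPM and 22.5 ± 1.88 CPM (SD, n = 4). Aldh1a2 was called by DESeq2.

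Astrocyte and oligodendrocyte markers had higher mean sums at 50 ppm, as the 9 genes did, whereas neuron markers had nearly equal ones. Neuron markers (7 of 8 tested, 0 under either threshold, median 0.01) summed to 6457 to 7461 CPM at 0 ppm and 6781 to 7219 CPM at 50 ppm, led by Dcx at 1884 CPM, and Map2 had 1847 ± 101 CPM and 1862 ± 85.4 CPM (SD, n = 4). Tubb3, whose gene lies inside the span of Gm20388 on the same strand, was listed at 0. For Itgam, Cfb, Irf8 and Tubb3, and for Hoxa3 among the hindbrain and spinal cord markers, a listing at 0 does not show that the gene was not expressed. Hoxa3 lies inside the span of Gm28308 on the same strand. Astrocyte markers (8 of 8 tested, 0 past the adjusted threshold of edgeR, 4 higher and 0 lower at an unadjusted p under 0.05, 8 positive, median 0.29) summed to 992, 846, 1061 and 916 CPM at 0 ppm, and at 50 ppm 1125, 1146, 1032 and 1237 CPM. Slc1a3 led them at 355 CPM, and Aqp4, the water channel of astrocyte endfeet, had 82.2, 57.8, 117 and 85.9 CPM at 0 ppm, and at 50 ppm 146, 147, 112 and 156 CPM. Gfap, Gjb6 and Aldoc had log2 fold changes of 0.59, 0.52 and 0.40. Oligodendrocyte markers (10 of 10 tested, 0 past the adjusted threshold, 4 higher and 0 lower at an unadjusted p under 0.05, 7 positive, median 0.10) summed to 411, 394, 439 and 397 CPM at 0 ppm, and at 50 ppm 468, 502, 402 and 507 CPM, led by Pdgfra at 125 CPM. The groups did not overlap for the myelin genes Mag, Cnp and Mbp, whose log2 fold changes were 1.15, 0.52 and 0.49. As for P2ry12 and the sum of the 9 genes, 50 ppm replicate 3 was the lowest brain of its group for both glial sums. Without 0 ppm replicate 3 edgeR called Cnp, Aldoc, Aqp4 and Mag, and without 50 ppm replicate 3 its calls included Mag and Mbp. The part of these lists in the result was not tested.

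Markers of brain regions also differed between libraries. Markers of hindbrain and spinal cord (7 of 8 tested, Hoxa3 listed at 0) summed to 11.8, 13.3, 55.0 and 61.5 CPM in the 0 ppm replicates and 136, 82.2, 50.2 and 70.2 CPM in the 50 ppm replicates, led by Slc6a5 at 24.9 CPM. The pair of 0 ppm replicates 1 and 2 was far below the other 6 brains, with 0 and 3 reads of Hoxb5. How far each dissection reached towards the spinal cord is not given in the sample labels. Its part in the means and fold changes of these markers was not tested. By edgeR 0 of the 7 passed the adjusted threshold and 6 were higher at an unadjusted p under 0.05, with a median of 1.41 and 7 positive. Among them, Slc6a5, Hoxb4, Hoxb5, Hoxa2 and Slc5a7 had log2 fold changes of 1.41, 1.81, 2.33, 1.46 and 0.46. Forebrain markers (8 of 8 tested, 0 past the adjusted threshold, 0 higher and 3 lower at an unadjusted p under 0.05, 7 negative, median -0.19) summed to 965, 923, 541 and 700 CPM at 0 ppm, and at 50 ppm 660, 679, 795 and 693 CPM, led by Neurod6 at 224 CPM. Dlx1 and Dlx5, both forebrain transcription factors, had log2 fold changes of -0.42 and -0.40. Of the 0 ppm brains low in hindbrain markers, replicate 2 had the lowest sum of the 9 microglia genes and replicate 1 a sum close to that of replicate 3. The part of these markers in the result was not tested.

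Over the 17 lists beside the 9 genes, 198 genes were listed, 189 were tested, and edgeR called 0 at an adjusted p under 0.05. At an unadjusted p under 0.05, 25 of the 189 were higher, beside 2.31% of all genes tested, and 4 were lower, beside 1.44%. The lists were chosen with earlier results of these data known, so these counts are not independent of the data. The lowest adjusted p was that of Mag, 0.169, by edgeR's quasi-likelihood test with the Benjamini-Hochberg adjustment. DESeq2 called 5 (Cnp, Aldh1a2, Mag, Mbp and Dlx1), all reported by the authors of the data as differentially expressed. Without a filter on low counts edgeR called 8, among them Apoe, Cnp, Aqp4, Mag, Hoxb5, Mbp and Dlx1. The count was 4 without 0 ppm replicate 3 and 3 without 50 ppm replicate 3. None of the genes called in these settings was one of the 9 or of the list of other microglia genes.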

How the data were processed

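For each library the authors deposited raw read counts by gene. Per the submitters' processing notes, reads were checked with FastQC, aligned with STAR to the C57BL/6J (B) genome with Ensembl annotation and counted with htseq-count, and DESeq2 was run; tool versions and the strand setting are not given in the sources used here. Reads of the paternal CAST allele were aligned to the B genome in both groups. The counts from the CAST/EiJ genome were not used, since their identifiers are not paired with symbols in the tables at hand.

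Here, a gene was kept if no more than 5 of the 8 libraries had 0 reads of it (23113 genes). They were fitted in edgeR 4.0.16 (R 4.3.3) with TMM factors and a quasi-likelihood test for treatment alone, two-sided, with Benjamini-Hochberg adjustment over all of them. The SE is the absolute log2 fold change over the square root of F, and intervals are 95% confidence intervals. Correlations used log2 CPM with a prior count of 2, and have no test. Symbols, positions and exon lengths came from GENCODE M21 (GRCm38), another annotation release than that of the counting. Apart from the 9 genes, genes were named if their unadjusted p was under 0.05, or else as the 2 most abundant of a list, together with the 10 most alike. The alternatives were DESeq2 1.42.0, its size factors, no TMM, other filters, limma-voom with weights for sample quality (limma 3.58.1), a robust fit and leaving out each library. The procedure was tested on simulated data. Plots used Python 3.11.15 and matplotlib 3.10.9. The members and lists were chosen with earlier results of these data known.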

Additional observations from a re-analysis of the deposited data

Results flagged for a closer look

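Of 144 groups of 4 libraries examined for a brain far from the others of its group, 2 were set apart, and chance flags about 1 in 20 groups. None of the 9 microglia genes was among them. For Cd4, read as a lymphocyte marker, 50 ppm replicate 4 had 0.750 CPM beside 0.357 to 0.421 CPM in the other 3 brains of its group, so that its gap took 0.837 of the group's range. For Hoxb4, a hindbrain and spinal cord marker, 50 ppm replicate 1 had 7.47 CPM beside 1.856 to 2.32 CPM in the other 3, a gap of 0.918 of the range.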

How the results depend on the processing

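Over 15 alternatives, 0 of the 9 genes passed the adjusted threshold, and the lowest adjusted p of any was 0.653 (P2ry12, without 50 ppm replicate 3). The number of the 9 with an unadjusted p under 0.05 was 3, and 0 to 3 with 1 library left out. The 4 genes called among all genes became 22 with DESeq2, 52 without a filter on low counts, 2 when 4 or more libraries had to hold 10 or more counts, 1 with limma-voom with sample quality weights and 2 to 20 with 1 library left out. The genes called on the other lists were 0, with 5 by DESeq2, 8 without a filter and 0 to 4 when 1 library was dropped. For Tmem119 the log2 fold change was 0.0095, and it reversed to -0.042 without 0 ppm replicate 2, -0.029 without 0 ppm replicate 4, -0.069 without 50 ppm replicate 3 and -0.083 without 50 ppm replicate 4, within a range of -0.083 to 0.11 with 1 library left out. That of Aif1 was -0.14, and it reversed to 0.013 without 50 ppm replicate 1 and 0.0093 without 50 ppm replicate 3, within a range of -0.33 to 0.013. The other 7 genes kept their sign in all 15. The cause was not tested. The summed difference of 15.3 CPM was 15.8 CPM without TMM. With the longest transcript as length, 3 genes changed rank.

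No paired analysis was possible because replicate numbers follow the order of deposit only and name a sample, not a pair. Aif1, with 23 to 46 reads per library, and Trem2, with 55 to 98, are the genes most limited by depth. The strand setting of the counting is not known.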
